A study of Mus musculus with 80 samples.

Results

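The genes described here encode the constitutive 26S proteasome, the protease that degrades ubiquitin-tagged proteins, in the gastrocnemius of mice whose hindlimbs were unloaded. Members were all protein-coding genes whose symbol is Psma, Psmb, Psmc or Psmd followed by a number, without the immunoproteasome subunits Psmb8, Psmb9 and Psmb10. The rule took 34 genes in each of the deposited tables, of 12853 genes measured in males and 11068 in females. They comprised 14 core genes (Psma1 to Psma7 and Psmb1 to Psmb7) and 20 base and lid genes (Psmc1 to Psmc6 and Psmd1 to Psmd14). Psma8 and Psmb11 were not among the rows. The name rule also caught Psmd5, Psmd9 and Psmd10, which encode assembly chaperones and not subunits, so 31 of the 34 members were subunits. The members lie on 15 chromosomes.

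Muscle RNA of C57BL6/J mice was sequenced after 0, 24, 48, 72 or 168 h of hindlimb unloading, in which the hind legs bear no weight and the calf muscle wastes. The 0 h mice were controls that were not unloaded. Males numbered 7, 8, 9, 9 and 8 at these times, and females 8, 8, 8, 8 and 7. The mice carry no other allele or agent in the labels, and their age is not given in the sources used here.

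In the proteasome, a barrel of stacked rings holds the proteolytic sites inside, and the outer alpha rings (Psma genes) gate the entry to the inner beta rings (Psmb genes). A regulatory particle docks on the alpha ring. Its base holds the ATPases that unfold and thread substrates (Psmc genes) and scaffold and receptor subunits, and its lid holds the deubiquitinase that removes the ubiquitin chain. In wasting muscle the ubiquitin-proteasome system is known as a main route of myofibrillar protein breakdown, and the transcription factor NRF1, encoded by Nfe2l1, is known to activate proteasome genes through antioxidant response elements.

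Promoter sequences of 28 of the 34 members were found in RefSeq (GRCm38.p6). The windows ran from 250 bases before to 50 bases after the start. The element was searched as TGACNNNGC on both strands, and motifs were counted separately whether or not they overlapped. It was found in 5 of the 28 genes (Psmb5, Psmb6, Psmc6, Psmd9 and Psmd12), or 17.9%, against 17.1% of the 9193 genes of either table that had a promoter. The box CCAAT was in 39.3% of the members and 42.9% of those genes, and GGGCGG in 64.3% and 69.1%. Within the members, GGGCGG was found in 45.5% of the 11 core genes and in 76.5% of the 17 base and lid genes. CCAAT went the other way, with 54.5% and 29.4%, and TGACNNNGC was in 18.2% and 17.6%. No test was made of these splits. The 120 bases before the start are shown for the catalytic subunits Psmb5 and Psmb6, whose windows hold the element, for the chaperone Psmd9, which holds it and whose RNA passed the test in 1 of 8 comparisons, and for the lid gene Psmd8, which holds no match and had the largest change of all members in each comparison with 0 h except males at 48 h. Capitals mark TGACNNNGC, which begins 47, 9 and 31 bases before the start of Psmb5, Psmb6 and Psmd9. The windows are chr14:54617996-54618115 (minus strand), chr11:70525237-70525356 (plus strand), chr5:123228070-123228189 (plus strand) and chr7:29180674-29180793 (minus strand) of GRCm38.p6.
Psmb5: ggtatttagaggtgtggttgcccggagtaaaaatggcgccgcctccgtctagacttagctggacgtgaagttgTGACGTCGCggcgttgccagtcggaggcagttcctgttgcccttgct
Psmb6: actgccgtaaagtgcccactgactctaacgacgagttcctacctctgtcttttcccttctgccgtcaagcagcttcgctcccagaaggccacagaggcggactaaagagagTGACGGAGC
Psmd9: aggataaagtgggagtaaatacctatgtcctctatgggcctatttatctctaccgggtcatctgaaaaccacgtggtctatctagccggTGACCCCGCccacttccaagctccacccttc
Psmd8: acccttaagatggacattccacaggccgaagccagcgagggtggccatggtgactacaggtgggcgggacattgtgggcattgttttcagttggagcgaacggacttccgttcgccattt

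Values are the authors' signal, that is reads per gene scaled by a single factor per library, and the sexes were scaled in separate tables, so levels are not compared between them. The estimated depth was 18.0 to 49.7 M reads per library in males and 5.57 to 50.5 M in females. It is the summed signal of the rows over a factor sought to make low values whole reads. That factor did so for only 54.1% to 71.8% of them, so depths are approximate. Female libraries of 24 h (mean 9.03 M) and 72 h (6.72 M) were shallower than those of 0 h (37.2 M) and 48 h (37.5 M). In females, 7 libraries stood apart, with a median rank correlation to the rest of their group under 0.95. All 8 skeletal muscle markers were present in every library, with a summed signal of at least 1074000. In whole muscle, fewer cells of a type and less RNA per cell cannot be told apart. Each library was taken as 1 animal, and p-values measure the spread between these samples.

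In control muscle the subunits differed in level even after division by transcript length. In males the signal per kilobase of transcript was highest for the catalytic subunit Psmb7, at 4548 ± 404 (SD, n = 7), followed by Psmb6 at 3340 ± 346 and the alpha subunit Psma6 at 3159 ± 255. In females the order of the first 3 was the same, with 2740 ± 334, 2568 ± 372 and 1780 ± 167 (n = 8). Psmb7 and Psmb6 lay within their spread of each other in females, as did Psmb6 and Psma6 in males. The highest and lowest subunits were 10.5-fold apart in males and 11.7-fold in females. The lowest in males was Psma5, at 434, whose value is uncertain because of a pseudogene copy, and Psma3 was next, at 527. In females Psma3 was the lowest, at 234, and Psma5 was next, at 239. The chaperones Psmd5, Psmd9 and Psmd10 lay between 144 and 202 per kilobase in males and between 72.1 and 134 in females. Each of the 31 subunits lay above all 3 chaperones, except when the shortest annotated protein-coding transcript was used as the length. With it the highest chaperone was 3.65 (males) and 4.39 (females) times the lowest subunit. The order and the range of the subunits also depend on the transcript chosen. Psmd2 has annotated protein-coding transcripts of 441 to 2961 bases, whereas Psmb7 has only 1, of 1160 bases.

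**Figure D1:**
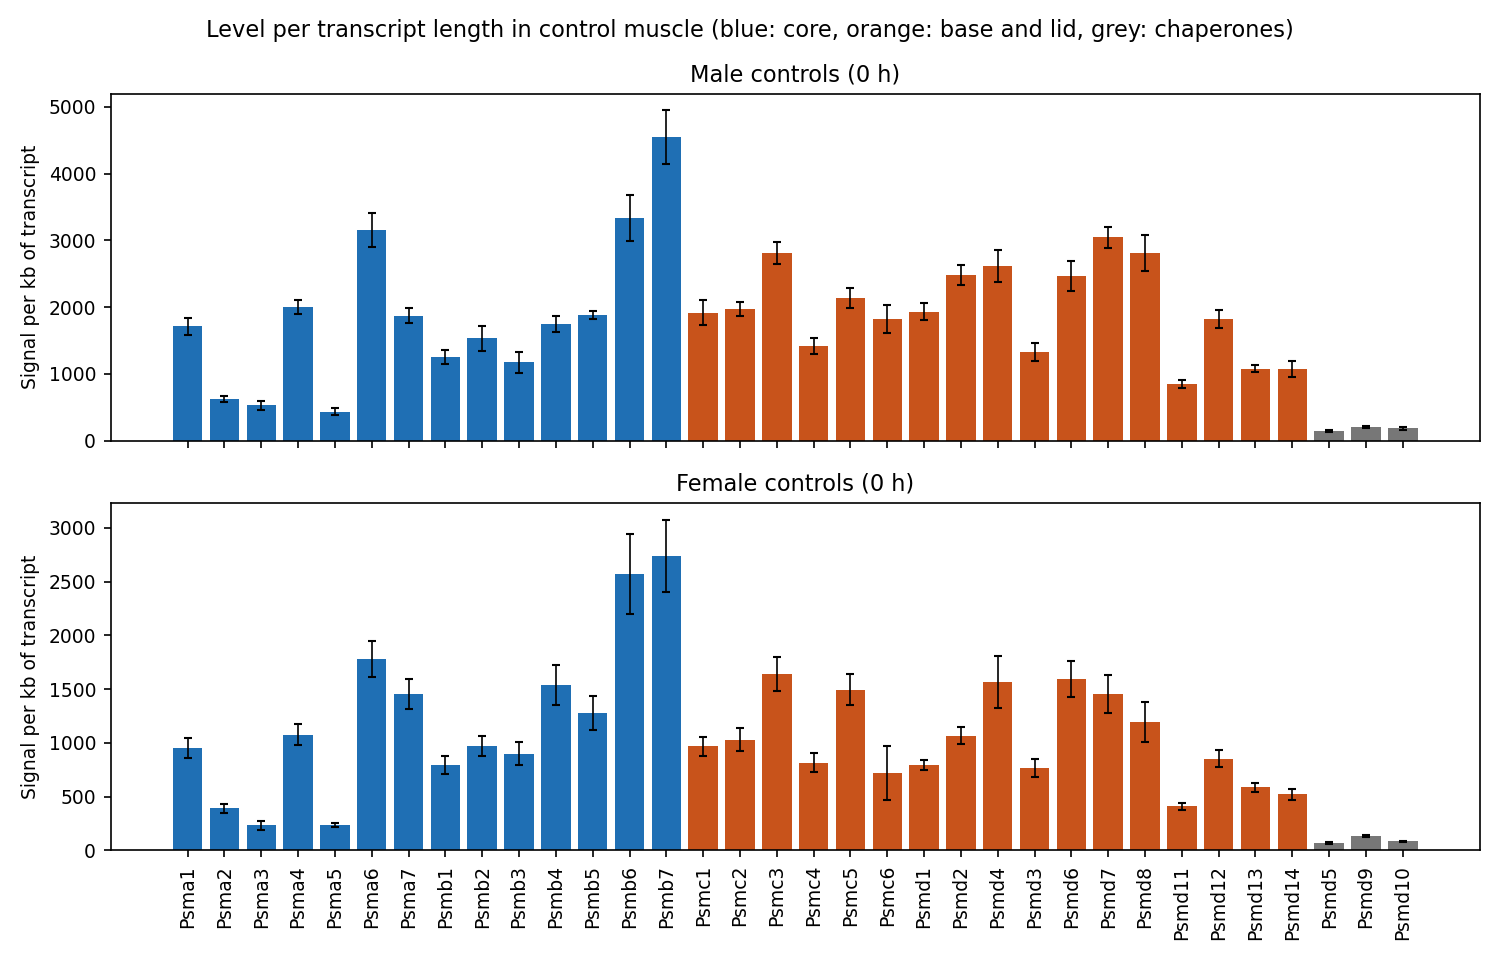
Signal per kilobase of transcript (vertical axes) of the 34 members in the control muscles of 7 males (top) and 8 females (bottom). Bars are means and whiskers SD. Psmb7 is the highest bar in both panels, and the 3 grey chaperone bars at the right are the lowest.

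All 31 subunits were higher after the first day of unloading in both sexes, and none was called lower than at 0 h at any time. In males all 31 were higher at 24 h and at 48 h, with a median log2 change of 0.48 and 0.57, and 19 and 20 were still higher at 72 h and 168 h, with medians of 0.31 and 0.28. In females all 31 were higher at 24 h and 48 h (medians 0.62 and 1.02) and 29 at 72 h (0.87), and at 168 h Psmc1, Psmc3, Psmd2 and Psmd8 were (0.24). A log2 change of 1 is a doubling, and a gene counted as changed at an adjusted p under 0.05 in limma across all genes of its table. Of all genes, the share that rose was 14.8%, 16.3%, 5.61% and 11% in males at 24, 48, 72 and 168 h. It was 13.8%, 21%, 16.8% and 6.3% in females. The share that fell was 14.4%, 14.7%, 5.22% and 11.5% in males and 10.9%, 17.1%, 13.2% and 4.38% in females. The female count of 4 at 168 h was 2 without female 1 or 8 of 0 h or female 1, 4 or 7 of 168 h. It was 2 with quantile normalization or scaling to the library total, 12 with array weights and 15 with only the groups compared, and 7 in the authors' deposited table. The female Psmd2 call at 168 h was lost without any of 12 of the 15 libraries, at an adjusted p of up to 0.087. That of Psmc1 was lost without any of 5.

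For many members the groups did not overlap at all. Every unloaded library lay above every control for 25, 21, 10 and 10 members in males at 24, 48, 72 and 168 h, against 4.41%, 3.59%, 0.896% and 2.52% of all genes. In females this held for 23, 28, 27 and 4 members, against 3.8%, 7.52%, 4.85% and 2.6%.

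Added up, the 31 subunits took 2599 ± 129 ppm of the library signal in control males (n = 7) and 3944 ± 931 at 48 h (n = 9). In females they took 3031 ± 293 at 0 h and 6518 ± 1846 at 48 h (n = 8 each). The highest controls stood at 2791 ppm in males and 3569 in females. The lowest libraries of 24, 48 and 72 h stood at 3089 and 3795, so none overlapped the controls. At 168 h the male libraries held 2737 to 3430 and the female ones 3541 to 4242, so both groups overlapped their controls. Of the males only number 6 did, since the other 7 lay between 3126 and 3430. In females the overlap rested on control 7, at 3569 ppm, a library that stood apart. The next highest female control stood at 3252.

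The spread between animals was largest at 48 h. The mean log2 change of the 31 subunits had an SD of 0.08 over control males and 0.29 over males of 48 h. In females it was 0.12 at 0 h, 0.34 at 48 h and 0.27 at 72 h. The 9 males of 48 h stood at 0.25, 0.34, 0.41, 0.42, 0.44, 0.44, 0.84, 0.97 and 1.04, so 3 libraries were set off above the other 6. The females of 48 h ran from 0.52 to 1.56.

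**Figure D2:**
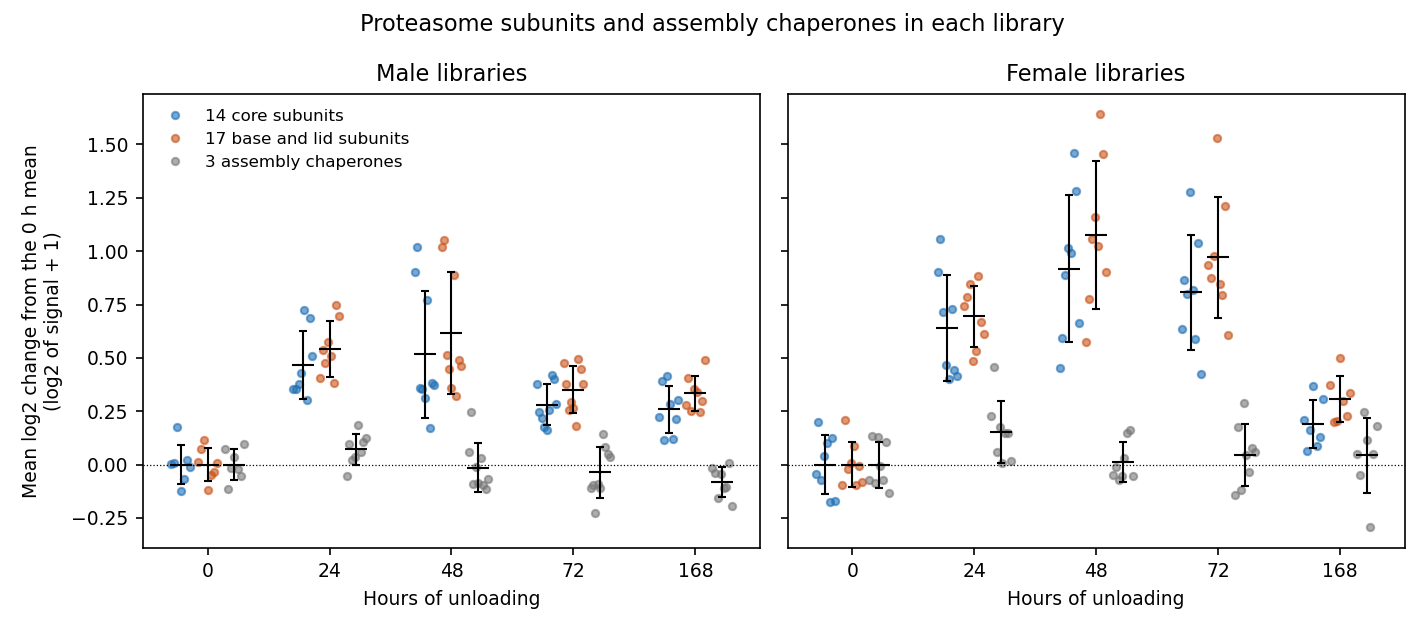
Mean log2 change from the 0 h mean (vertical axes) of the 14 core subunits, the 17 base and lid subunits and the 3 chaperones against hours of unloading. Each point is a library, and bars are mean and SD. Both sets of subunits rise at 24 h in males and females. After 0 h the grey chaperones have lower group means than the subunits, between -0.08 and 0.15, although some single points lie among those of the subunits. In both sets of subunits 3 males of 48 h stand above the other 6.

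The beta ring carries the 3 proteolytic activities of the core. Psmb5, the chymotrypsin-like subunit (ENSMUSG00000022193), had signals of 1620, 1675 and 1789 (lowest, median and highest) in control males, 1999, 2115 and 2863 at 24 h, 1788, 2007 and 3449 at 48 h, 1817, 2324 and 2770 at 72 h and 1723, 1953 and 2491 at 168 h. Its libraries of 24 h and 72 h all exceeded every control, and those of 48 h and 168 h overlapped them. The log2 changes were 0.38 ± 0.10 (SE; adjusted p = 0.004), 0.41 ± 0.10 (0.0014), 0.40 ± 0.10 (0.0051) and 0.22 ± 0.10 (0.11). In females Psmb5 went from 959, 1165 and 1338 at 0 h to 1582, 2279 and 2844 at 72 h, without overlap, and to 1213, 1400 and 1832 at 168 h, with overlap. Those changes were 0.92 ± 0.15 (adjusted p = 1.2e-05) and 0.33 ± 0.15 (0.18).

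Psmb6 and Psmb7, the caspase-like and trypsin-like subunits, had the smallest changes of the 31 subunits in males at 24 h. They were 0.31 ± 0.07 for Psmb7 (adjusted p = 0.0014), without overlap, and 0.35 ± 0.07 for Psmb6 (0.00042), with overlap. In females at 24 h Psmb6 rose by 0.38, a call lost without any of 5 of the 16 libraries, at an adjusted p of up to 0.077. The female Psmb6 signal was 1703, 2082 and 2534 at 0 h and 2295, 2873 and 3542 at 48 h. These groups overlapped, although all 8 unloaded libraries exceeded the control mean, and the change of 0.46 ± 0.13 (0.0038) was the smallest of the 31. Psmb7 in the same mice rose by 0.65 ± 0.11 (1.7e-05) without overlap. Psmb4, a structural subunit, reached 1.15 ± 0.14 in females at 72 h (1.5e-07). The rows Psmb6-ps2 and Psmb7-ps2 are pseudogene copies that can share reads with Psmb6 and Psmb7. Their control means were low, 138 and 32.7 in males. In females Psmb6-ps2 had a control mean of 95.8. It rose there by 0.49 ± 0.15 (0.014), 0.53 ± 0.15 (0.0046) and 0.68 ± 0.15 (0.00066) at 24, 48 and 72 h. At 168 h, and in males at any time, Psmb6-ps2 was not called. The part of shared reads in the Psmb6 values was not tested.

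In the alpha ring Psma7 and Psma1 took different courses. In males Psma7 went from 1589, 1686 and 1917 at 0 h to 2185, 2675 and 4473 at 48 h and 2100, 2463 and 2736 at 168 h, with no overlap at any time. Its log2 change was 0.80 ± 0.11 at 48 h (adjusted p = 1.1e-06) and 0.51 ± 0.11 at 168 h (0.0013). In males Psma1 went from 1870, 2001 and 2349 at 0 h to 2082, 2543 and 3667 at 24 h, overlapping, and was at 1586, 1870 and 2268 by 72 h. The changes were 0.36 ± 0.14 (0.049), and -0.11 ± 0.14 (0.67). The first call was lost when any of 11 of the 15 libraries was left out, with an adjusted p of up to 0.12. At 48 h the male change of Psma1 was 0.37. That call was lost without any of 7 of the 16 libraries, at an adjusted p of up to 0.099. In females Psma1 stood 0.81 ± 0.18 above the controls at 48 h (0.00038) and -0.11 ± 0.18 from them at 168 h (0.78).

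Psma5 had the largest change of the alpha ring on the first day, 0.73 ± 0.13 in males (6.4e-05) and 1.12 ± 0.17 in females (1.2e-05). Its value is uncertain, because the pseudogene row Psma5-ps held more signal than Psma5 itself (means of 729 and 538 in control males) and moved alongside it, by 0.81 ± 0.14 at 24 h in males (4.5e-05). How reads were split between these copies is not given in the sources used here.

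The 6 base ATPases all rose at 24 h and 48 h in both sexes. In males at 24 h their log2 changes ran from 0.43 to 0.66, and every unloaded library exceeded every control for all 6 genes. In females at 48 h the ATPases ran from 0.82 to 1.29. Psmc3 rose in both sexes at all 4 times, including by 0.41 ± 0.07 (5.2e-05) in males and 0.36 ± 0.10 (0.011) in females at 168 h, each without overlap. Psmc6 was uneven in females: its control libraries ran from 546 to 2014 around a median of 1867, and those of 72 h from 595 to 4639. Its female call at 24 h was lost without control 7, at an adjusted p of 0.06, and that at 72 h without any of 9 of the 16 libraries, at up to 0.13.

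The other base subunits are the scaffolds Psmd1 and Psmd2 and the receptor Psmd4. Their median log2 change was 0.48, 0.65, 0.52 and 0.46 in males at 24, 48, 72 and 168 h, against 0.53, 0.62, 0.37 and 0.31 for the ATPases. In females it was 0.71, 1.34, 1.34 and 0.37, against 0.72, 1.02, 0.89 and 0.29, and no test was made of this split. Psmd4, the ubiquitin receptor that catches tagged substrates, had signals of 2793, 3416 and 3758 in control males and 4612, 5882 and 6901 at 24 h, 5110, 5873 and 9486 at 48 h, 4208, 5207 and 5760 at 72 h and 4424, 4985 and 6391 at 168 h. Every unloaded library lay above every control. Its log2 changes were 0.80 ± 0.11, 0.94 ± 0.11, 0.60 ± 0.11 and 0.61 ± 0.11, with adjusted p from 3.3e-08 to 0.00019. In females it rose from 1554, 1933 and 2615 to 3379, 5393 and 8792 at 48 h, a change of 1.46 ± 0.16 (7.4e-09), and was at 2189, 2694 and 3191 at 168 h, where 3 of 7 libraries lay within the control range and the change was 0.42 ± 0.16 (0.093). Psmd2, the scaffold that binds ubiquitin shuttles, rose by 1.34 ± 0.12 at 48 h (1.7e-10) and 1.35 ± 0.12 at 72 h (2.4e-10) in females. Its male changes were 0.65 ± 0.08 and 0.52 ± 0.08.

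In the lid, Psmd8 had the largest change at every time. Its yeast counterpart is known as the last subunit to join the lid. The gene (ENSMUSG00000030591) lies on chromosome 7, at 28873613 to 28880127 on the minus strand in the tables' coordinates, whose build is not given in the sources used here. Its signal in males was 3898, 4191 and 5030 at 0 h, 6151, 8932 and 10050 at 24 h, 5477, 8231 and 11420 at 48 h, 6015, 7513 and 9672 at 72 h and 6654, 7321 and 9476 at 168 h. In females it was 1510, 1907 and 2198 at 0 h, 3284, 4210 and 5486 at 24 h, 3577, 5645 and 9688 at 48 h, 3665, 5511 and 9406 at 72 h and 2883, 3115 and 4254 at 168 h. No unloaded library of either sex overlapped the controls. The log2 changes in males were 0.97 ± 0.12, 0.90 ± 0.11, 0.77 ± 0.11 and 0.79 ± 0.12. In females they were 1.21 ± 0.17, 1.68 ± 0.17, 1.70 ± 0.17 and 0.82 ± 0.17, and the largest adjusted p of the 8 was 0.0015.

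The deubiquitinase Psmd14 and the lid subunit Psmd11, which contacts the core, were near their controls by 168 h in females. Psmd14 had 1475, 1609 and 1971 in control males and 2078, 2462 and 3915 at 48 h, without overlap, for a change of 0.70 ± 0.11 (8.6e-06). At 72 h it was at 1702, 2128 and 2575, with overlap, and at 0.33 ± 0.11 (0.049), a call lost without any of 11 of the 16 libraries (adjusted p of up to 0.1). Psmd11 rose by 0.57 ± 0.12 at 48 h in males (0.00041), and stood at 0.18 ± 0.12 (0.37) and 0.14 ± 0.12 (0.44) at 72 h and 168 h. In females at 48 h the changes were 1.05 ± 0.13 for Psmd14 (7.1e-08) and 1.06 ± 0.16 for Psmd11 (2.3e-06), both without overlap. By 168 h they were at 0.12 ± 0.13 (0.63) and 0.11 ± 0.16 (0.76).

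**Figure D3:**
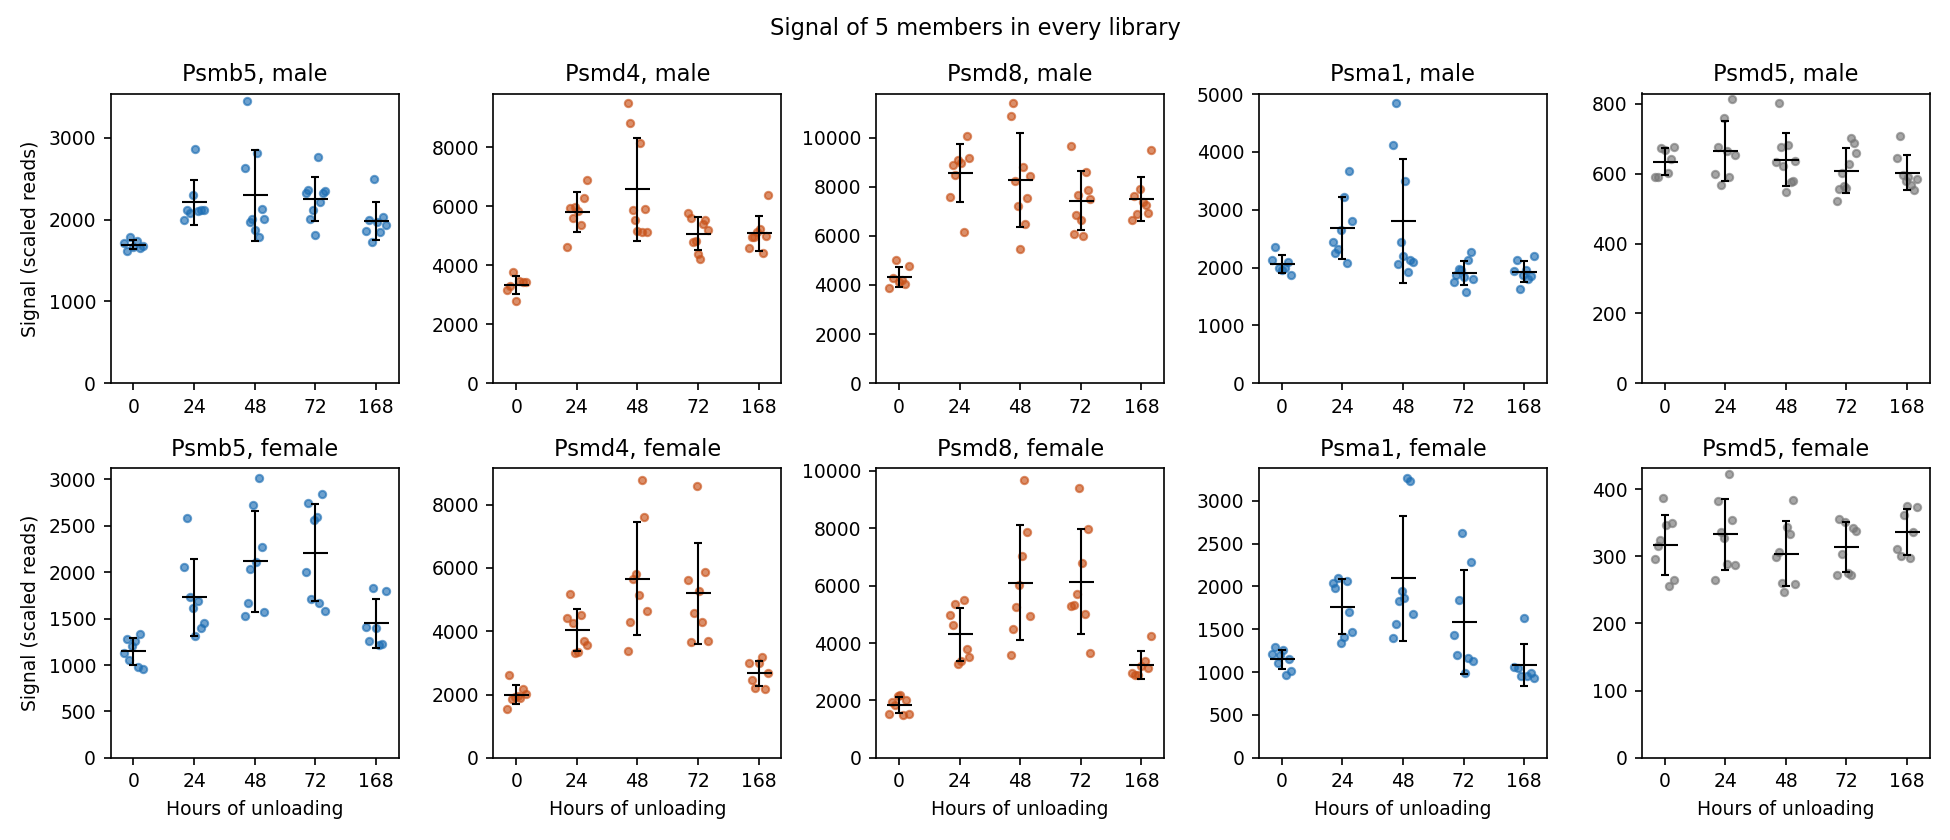
Signal in every library (vertical axes, from 0) of Psmb5, Psmd4, Psmd8, Psma1 and Psmd5 against hours of unloading in males (top) and females (bottom). Points are libraries and bars mean and SD. Psmd8 stays above all controls to 168 h, no Psma1 value of 168 h exceeds the highest control except that of 1 female, and the chaperone Psmd5 overlaps its controls throughout.

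The 3 chaperones of base assembly mostly did not pass the test. Psmd5 had signals of 590, 643 and 676 in control males and 547, 633 and 803 at 48 h, and 255, 320 and 386 in control females and 247, 303 and 384 at 48 h. These groups overlapped, with changes of 0.01 ± 0.08 (0.97) and -0.06 ± 0.10 (0.65). Over all 8 comparisons the 3 genes ran from -0.11 to 0.26, and 1 of their 24 tests passed. That was Psmd9 in females at 24 h, at 0.26 ± 0.10 (0.049). The call was lost in 6 alternative settings, with adjusted p of up to 0.26.

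**Figure D4:**
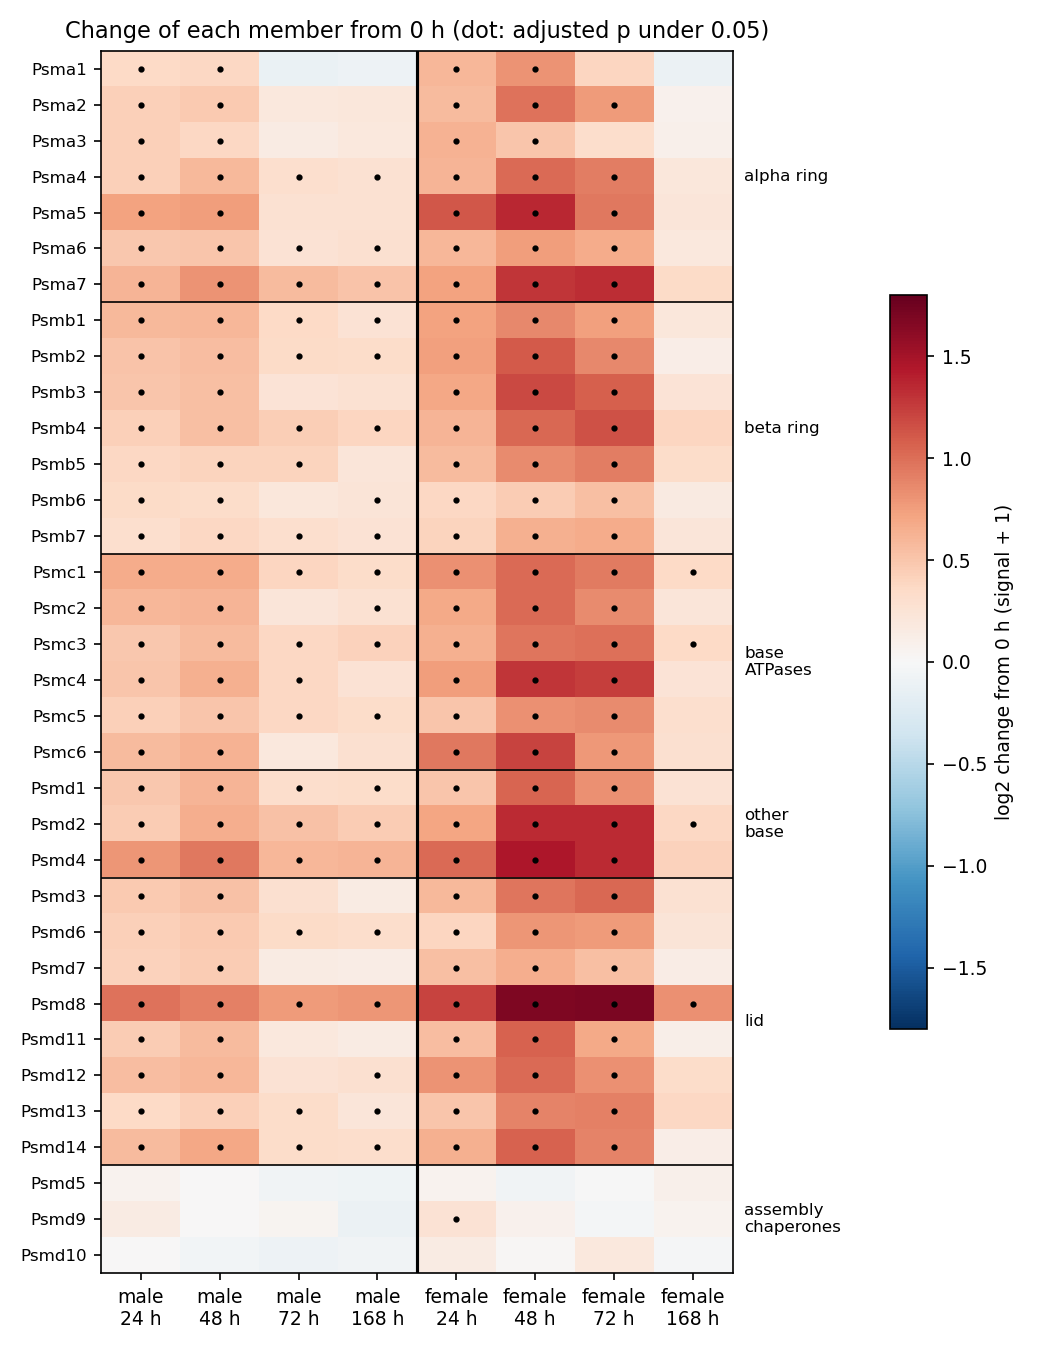
Log2 change from 0 h (color) of each of the 34 members (rows, grouped by place in the complex) at 24, 48, 72 and 168 h in males (left) and females (right). Dots mark an adjusted p under 0.05. All 31 subunits carry a dot at 24 h and 48 h in both sexes, and 1 dot falls on the chaperones.

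Core and regulatory particle were set side by side. The median log2 change in males was 0.43, 0.52, 0.29 and 0.27 for the 14 core genes at 24, 48, 72 and 168 h and 0.48, 0.58, 0.32 and 0.29 for the 20 base and lid genes, chaperones included. In females it was 0.61, 0.92, 0.82 and 0.20 for the core and 0.61, 1.02, 0.86 and 0.26 for base and lid. The 17 base and lid subunits without the chaperones had medians of 0.49, 0.62, 0.33 and 0.32 in males and 0.64, 1.03, 0.89 and 0.29 in females. Per library, the mean change of base and lid minus that of core was 0.01 ± 0.05 in males (SD, n = 9) and -0.00 ± 0.07 in females (n = 8) at 48 h. Without the 3 chaperones this difference was 0.10 ± 0.04 and 0.16 ± 0.06, and it was above 0 in each of these 17 libraries, the lowest being 0.03 in either sex. At 24, 72 and 168 h it was 0.07 ± 0.13, 0.07 ± 0.06 and 0.08 ± 0.08 in males and 0.05 ± 0.18, 0.16 ± 0.10 and 0.12 ± 0.06 in females. At 24 h the difference was -0.22 in male 5. It was -0.16 and -0.27 in females 1 and 2, both libraries that stood apart, and above 0 in all other libraries of 24 h. The SD of this difference over the controls was 0.04 in males and 0.07 in females. No test was made of this split.

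Later times were compared with earlier ones directly. In males 15 members were lower at 72 h than at 48 h (5.36% of all genes were lower and 3.45% higher), among them Psma1 by -0.48 ± 0.13 (0.015) and Psmd4 by -0.34 ± 0.10 (0.027), while Psmb5 differed by -0.00 ± 0.09 (0.99). Left out singly, males 1, 2 or 6 of 48 h or 6 of 72 h brought this count to between 7 and 8, array weights to 4 and scaling to the library total to 7. Between 168 h and 48 h 14 were lower (3.31% of genes lower, 2.37% higher), and 5 to 8 without 1 of males 1, 2 and 6 of 48 h or 3 and 6 of 168 h. With array weights they were 8. From 24 h to 48 h limma called 0 members, against 0% of genes called higher and 0.0156% lower. From 72 h to 168 h it called 0, against 0.124% and 0.171%. At an unadjusted p under 0.05 there were 2 members in the first of these comparisons and 1 in the second. The share of all genes at that unadjusted threshold was not counted. From 24 h to 72 h 8 fell (5.27% of genes fell and 4.54% rose), and 3 to 5 without 1 of males 7 and 8 of 24 h or 6 of 72 h. With scaling to the library total 1 fell, and the median over the 34 was -0.09 in place of -0.18.

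In females limma called 0 members between 48 h and 72 h, against 0.352% of genes called higher and 0.244% lower. Another 3 members had an unadjusted p under 0.05, a threshold at which the share of all genes was not counted. At 168 h 29 members were lower than at 48 h (6.86% of genes, with 6.08% higher) and 27 were lower than at 72 h (2.22%, with 1.34% higher), with median log2 changes of -0.69 and -0.57. Psma5 fell by 1.15 ± 0.18 (7.4e-05) from 48 h, Psmd4 by 1.04 ± 0.16 (7.5e-05), and Psmd8 by 0.88 ± 0.17 (0.0021) from 72 h. Earlier on, 9 members were higher at 48 h than at 24 h (3.12% of genes were higher and 3.54% lower). This count fell to between 2 and 5 without 1 of females 1, 4 and 5 of 24 h or 4, 5, 6 and 7 of 48 h, and it was 19 and 14 without females 1 and 2 of 48 h. It was 3 with array weights and 17 with scaling to the total. From 24 h to 72 h 9 members rose (6.41% of genes) and the chaperone Psmd9 fell (5.85%). Psmd2 led with 0.63 ± 0.12 (0.00058). Without female 7 of 72 h, with array weights or without the 7 libraries that stood apart, 6 rose, and with scaling to the total 17 did. In each of these settings, and with quantile normalization, the fall of Psmd9 was no longer called.

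The 2 sexes were compared by the female change minus the male change in a joint fit of 10964 shared genes. At 24 h limma called 0 members, and 0 had an unadjusted p under 0.05. There 0.0365% of genes were larger in females and 0.0182% in males at an adjusted p under 0.05. At 48 h Psmd2 differed, by 0.68 (adjusted p = 0.01), where 0.237% of genes were larger in females and 0.0638% in males at an adjusted p under 0.05. At an unadjusted p under 0.05 there were 24 members, and the share of all genes at that threshold was not counted. At 72 h 17 members rose more in females, 5 of the core and 12 of base and lid, against 1.64% of all genes, and 0 rose more in males, against 0.803%. The female libraries of 72 h were the shallowest. They and most male libraries of 72 h also lie in other blocks of title numbers than their controls, as described below. The parts of depth and block in the sex difference were not tested. The widest gap was that of Psmd8, 1.70 in females and 0.77 in males, a difference of 0.93 ± 0.20 (adjusted p = 0.0074). Psmc4 differed by 0.87 ± 0.21 (0.014), Psmd2 by 0.82 ± 0.14 (0.00059) and Psmb3 by 0.82 ± 0.19 (0.0098). At 168 h limma called 0 members, 0 had an unadjusted p under 0.05, and the median difference over the 34 was -0.04. At an adjusted p under 0.05, 0.00912% of genes differed in each direction.

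**Figure D5:**
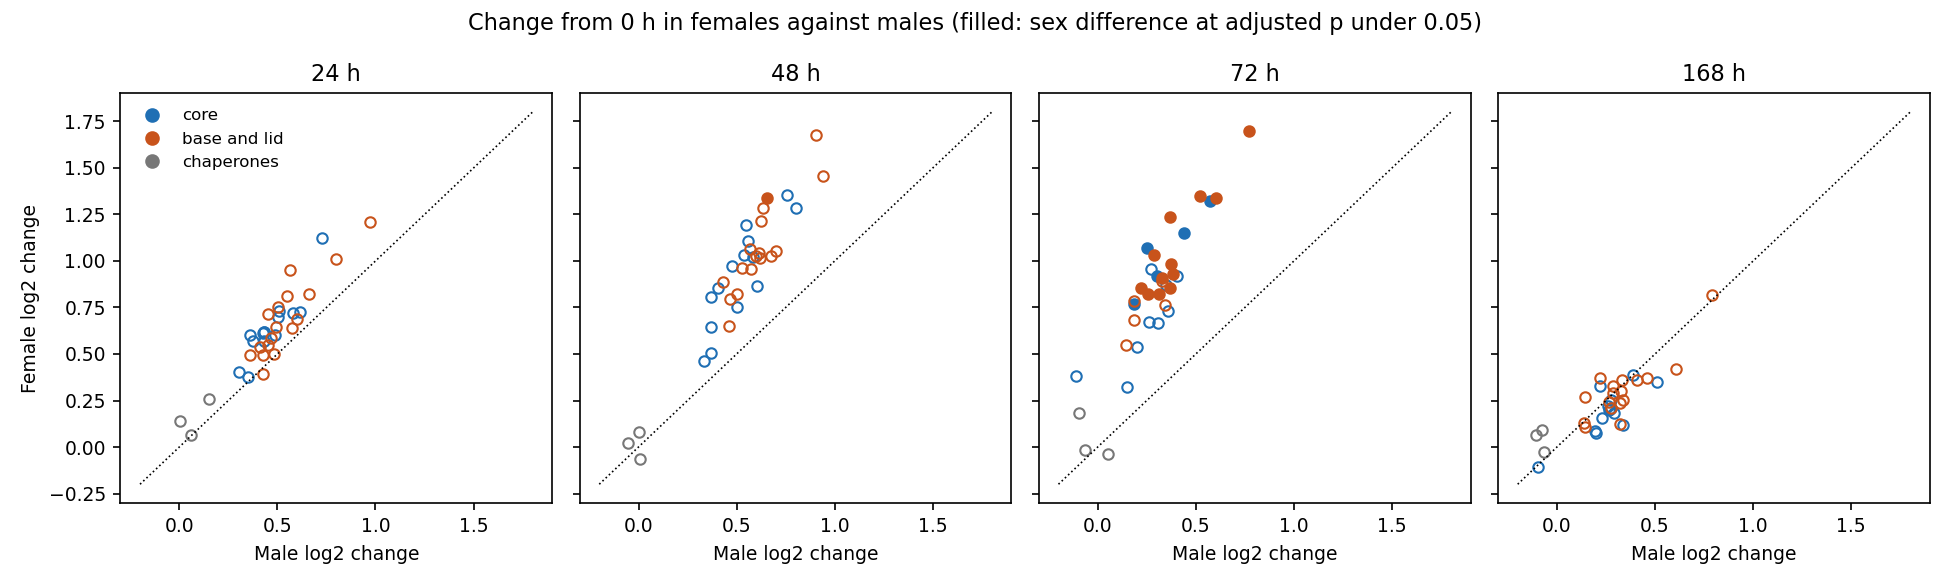
Log2 change from 0 h in females (vertical axes) against males (horizontal axes) for the 34 members at 24, 48, 72 and 168 h. The dotted line marks equal change, and filled points differ between the sexes at an adjusted p under 0.05. At 72 h 17 filled points lie above the line, at 48 h 1 does, and at 24 h and 168 h none is filled.

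The groups did not share all technical traits. The S numbers in the sample titles, whose meaning is not given in the sources used here, were taken to run in blocks, and in males the 0 h, 168 h and 2 of the 72 h libraries share 1 block, while the 24 h and 48 h libraries lie in others, where block and time cannot be told apart. Within the shared block 20 members rose at 168 h. Those 20 became 13 without control 4 or control 6. Of the 20, 7 lost their call without some single library, and Psma4 did so without any of 13 of the 15. At 72 h, where all 9 libraries gave 19 members, the 2 libraries of that block alone gave 8, with a median change of 0.34 over the 34, and the other 7 alone gave 15, with 0.29. In females 0 h and 48 h share a block and were of like depth, and there all 31 subunits rose. The female 24 h, 72 h and 168 h libraries lie in other blocks and were shallower than those of 0 h. There block, depth and time cannot be told apart. Without the 7 libraries that stood apart, 30, 31, 31 and 3 members were higher at 24, 48, 72 and 168 h.

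Some cell type markers were called as well. Of all genes, 14.8%, 16.3%, 5.61% and 11% rose in males at 24, 48, 72 and 168 h, and 14.4%, 14.7%, 5.22% and 11.5% fell. In females 13.8%, 21%, 16.8% and 6.3% rose, and 10.9%, 17.1%, 13.2% and 4.38% fell. A count of 1 in lists this short is not set apart from these shares. Of the 8 skeletal muscle markers, 1 to 2 rose and 0 to 2 fell in males over the 4 times. In females 1 rose at each time, and 3 fell at both 48 h and 72 h, 2 at 168 h and 0 at 24 h. Of the 5 endothelial markers 2 rose and 1 fell in males at 24 h and at 48 h, 1 rose at 72 h, and 1 rose and 1 fell at 168 h. In females 1 fell at each time and 1 rose at 24 h. In females at 72 h all 5 red blood cell markers fell, and their summed signal was 6294 to 13480 against 9739 to 31950 at 0 h. Of the 4 fibro-adipogenic progenitor markers 2 fell at every time in females, with a sum of 6962 to 10740 at 72 h against 10150 to 18380. In males 1 rose at 48 h and 2 fell at 168 h. In males at 48 h the smooth muscle markers fell, 3 of the 3 in the table, from a sum of 1921 to 3844 to one of 1687 to 2981, and 1 fell at 24 h. Of the 4 adipocyte markers 1 fell in males at 48, 72 and 168 h and 1 rose in females at 72 h, and 1 lymphocyte marker fell in males at 48 h. No listed marker of the red blood cell, progenitor and smooth muscle sets was at 0 in any library, and the part of these sets in the result was not tested. No macrophage marker rose in any comparison with 0 h, 1 fell in females at 72 h, and the 4 neutrophil markers are not among the rows.

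Genes around the proteasome moved in part. Adrm1, a ubiquitin receptor of the base that the name rule misses, rose by 0.82 ± 0.14 in males at 24 h (4.2e-05) and 0.98 ± 0.17 in females at 48 h (2e-05). Sem1, the small lid subunit, stood at 0.16 ± 0.13 (0.37) and 0.13 ± 0.14 (0.49). Of the core assembly chaperones, Pomp, which guides the beta ring, rose in both sexes at 24 h and 48 h, by up to 0.36 ± 0.12 (0.018), and at 72 h in females. None of Psmg1, Psmg2, Psmg3 and, in females, Psmg4 passed the test as higher, and Psmg1 fell in females at 48 h.

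Of the alternative caps, Psme4 rose by 0.46 ± 0.11 in males (0.002) and 1.05 ± 0.23 in females (0.0005) at 48 h. Psme1, a subunit of the interferon-inducible cap, fell by 0.75 ± 0.19 in females at 48 h (0.0018) and by 0.48 ± 0.12 in males at 168 h (0.0032). No immunoproteasome subunit passed the test as higher. Psmb8 and Psmb10 fell in females at 48 h, the latter by 0.70 on the log2 scale. These genes are the interferon-inducible counterparts of Psmb5 and Psmb7.

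Among ubiquitin enzymes and shuttles that bind the proteasome, 5 of 13 rose in males at 24 h and 7 at 48 h, and 3 and 10 in females, against 14.8%, 16.3%, 13.8% and 21% of all genes. In males 1 fell at each of these times, and in females 0 did. The list's medians were 0.22, 0.30, 0.31 and 0.66, beside 0.01, 0.01, 0.06 and 0.06 over all genes. They included Usp14, the deubiquitinase that trims chains on the base, at 0.95 ± 0.19 in females at 48 h (0.0002), and the thioredoxin-like Txnl1 at 1.18 ± 0.16 (4.5e-07). The ligase Ube3c fell in males at 24 h by 0.24 ± 0.07 (0.0061).

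Of the 8 genes listed for NRF1, NRF2 and their processing, 6 rose in males at 24 h and 7 at 48 h, and in females 6 and 7, against the same shares of all genes, and 0 fell. The list's medians were 0.33, 0.40, 0.44 and 0.71, beside the same medians over all genes. Nfe2l1 itself stood at -0.09 ± 0.07 (0.38) and -0.03 ± 0.07 (0.78) in males at 24 h and 48 h. In females it rose at 72 h by 0.26 ± 0.10 (0.042). Nploc4 and Ufd1 belong to the complex that draws NRF1 out of the membrane. Nploc4 rose by 1.04 ± 0.13 in males (1.2e-07) and 1.74 ± 0.20 in females (2.7e-08) at 48 h, and Ufd1 by 0.54 ± 0.08 (4.6e-06) and 1.02 ± 0.11 (5.5e-09). Ddi2, the protease that cleaves NRF1, was the member of the shuttle list that rose in both sexes at 168 h, by 0.66 ± 0.13 (0.00025) and 0.61 ± 0.16 (0.012).

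In the authors' deposited table of DESeq2 comparisons, 31, 31, 20 and 20 members were higher in males at 24, 48, 72 and 168 h, and 32, 31, 30 and 7 in females, at an adjusted p under 0.05. Of all genes in the authors' deposited table, 15.3%, 17%, 6.3% and 11.9% were higher in males and 17.2%, 24.7%, 19.5% and 8.39% in females.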

How the data were processed

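RNA of 80 gastrocnemius libraries was analysed, 41 male and 39 female. The submitters' processing notes name STAR (2.7.8a), Partek, both mm10 and mm39, and the authors' DESeq2, without saying which step used which. For each sex the authors deposited a table whose values are a scaled signal, reads per gene over a factor per library. Values at low signal were whole reads in only 54.1% to 71.8% of cases within 0.03 reads, so counts were not recovered and the values were tested with limma, which the design names for such values. The lowest row maximum was 100 in both tables, so genes never reaching that level are absent. The authors also deposited a fold ratio and an adjusted p-value from DESeq2 per gene and time, used as an alternative.

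Signals were tested as log2 of the value plus 1 with limma 3.58.1 (R 4.3.3), with trend and robust moderation, 5 groups per sex in a single fit, two-sided, Benjamini-Hochberg adjusted over all rows of a table. Fold changes on this scale understate those of low genes. A joint fit of 10 groups tested the sex difference. In simulated data based on males at 24 h and 12853 genes, 60% of 100 log2 changes of 0.5 and 97% of 100 changes of 1 were recovered. Far fewer genes changed there than were called in the real comparison, 14.8% higher and 14.4% lower. The recovery in the real data can therefore differ. Each value of the 5 times is that of another library, and the replicate numbers given here only name libraries.

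The rule for naming genes took Psmb5, Psmb6, Psmb7, Psmd4, Psmd14 and Psmd11 and, per sex and time, the 3 largest and 3 smallest changes. Only part of their values is given here, and Psmd10 has no value of its own. Others named were chosen after their values were seen. The members, lists and tests were chosen with earlier results of these data known. Transcript lengths are those of the lowest-numbered protein-coding transcript in GENCODE M21. The tables' gene starts coincide with mm10 for 2.49% of 12831 genes, so their positions are of another build and were not joined to promoter positions. Alternatives were a pseudocount of 10, rows with a mean of at least 200, scaling to the library total, quantile normalization, neither trend nor robust moderation, array weights, only the groups compared, single blocks of title numbers, and leaving out libraries. Tables and plots were made with pandas 2.3.3, numpy 2.4.6 and data.table (1.17.8), and drawn with matplotlib 3.10.9 in Python 3.11.15. Enrichment sheets and partial copies of the tables were not used.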

Additional observations from a re-analysis of the deposited data

Results flagged for a closer look

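Of 100 groups of values examined, 12 held a library set off from the rest of its group, and chance flags about 1 in 20. In males these were control 3 for Psmb6 (3228, the others 2415 to 2723), male 5 of 24 h for Psmb5 (2863 against 1999 to 2301) and Psmb6 (4332 against 2940 to 3599), male 1 of 72 h for Psmd2 (12730 against 9583 to 10980), and male 4 of 168 h for Psmb5 (2491 against 1723 to 2030). Male 8 of 168 h was high for Psmd4 (6391 against 4424 to 5234), Psmd11 (3591 against 2320 to 2723) and Psmd8 (9476 against 6654 to 7894), and male 6 of 168 h had a low summed share of the 31 subunits, 2737 ppm against 3126 to 3430. In females these were number 4 of 72 h for Psmd4 (8573 against 3657 to 5879), number 7 of 168 h for Psmd8 (4254 against 2883 to 3382) and number 4 of 168 h for Psma1 (1626 against 936 to 1063). The cause was not tested.

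The change from 0 h was larger in females than in males for Psmd2 at 48 h, by 0.68 on the log2 scale, and for 17 members at 72 h by the joint limma fit. In the alpha ring the 72 h difference was 0.59 for Psma2, 0.61 for Psma4 and 0.75 for Psma7. In the beta ring it was 0.82 for Psmb3 and 0.71 for Psmb4. Among the ATPases it was 0.55 for Psmc1, 0.64 for Psmc2, 0.61 for Psmc3, 0.87 for Psmc4 and 0.48 for Psmc5. The other base genes differed by 0.51 for Psmd1, 0.82 for Psmd2 and 0.74 for Psmd4. In the lid the differences were 0.74 for Psmd3, 0.93 for Psmd8, 0.57 for Psmd12 and 0.58 for Psmd13. Female libraries of 72 h had the lowest depth of all groups and lie in another block of title numbers than their controls. The parts of depth and block in these differences were not tested.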

How the results depend on the processing

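The counts of members that rose by 24 h and 48 h stayed within 1.5 times of the main ones in all settings run, and leaving out single libraries gave 30 to 31 in males and 30 to 32 in females. At 72 h the male count of 19 was 8 with the block of 2 libraries alone, and 16 to 21 with single libraries left out. At 168 h the male count of 20 was 13 with scaling to the library total and 13 to 21 with single libraries left out. The female count of 4 at 168 h was 12 with array weights, 15 with only the groups compared, 2 with quantile normalization, 2 with scaling to the total and 7 in the authors' deposited table, and 2 to 6 with single libraries left out. Between times in males, 72 h against 24 h (8) gave 1 with scaling to the total and 3 to 10 with single libraries left out, 72 h against 48 h (15) gave 4 with array weights, 7 with scaling to the total and 7 to 18, and 168 h against 48 h (14) gave 8 with array weights and 5 to 20. In females 48 h against 24 h (9) gave 3 with array weights, 17 with scaling to the total and 2 to 19. There 72 h against 24 h (10) gave 6 with array weights, 17 with scaling to the total, 6 without the libraries that stood apart and 6 to 11. The number of members that differed between the sexes at 72 h was 16 with scaling to the total and 23 without the libraries that stood apart. The causes were not tested.

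Base and lid minus core, between -0.03 and 0.08 with the chaperones over the 4 times, was 0.102 in males at 48 h and 0.0704 at 72 h without them, and 0.16 at both times in females. With the lid alone it was 0.0664 in males and 0.0963 in females at 48 h. With the ATPases alone it was 0.0884 in males at 48 h and 0.13 and 0.14 in females at 48 h and 72 h. The ratio of the highest chaperone to the lowest subunit per length, 0.48 in males and 0.62 in females, was 3.65 and 4.39 with the shortest transcript, an alternative chosen after seeing the data. Of 678 recomputed changes of named genes, none reversed, 653 kept their side of the threshold, 18 lost and 7 gained a call. With scaling to the total the median log2 change of all female genes was 0.10 at 48 h and 0.11 at 72 h, against 0.06 and 0.03.

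No paired analysis was possible because nothing in the labels ties a library of one time to a library of another. Female libraries of 24 h and 72 h had the lowest estimated depth, with means of 9.03 and 6.72 M reads, which can limit the precision of their values.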
